A study of Homo sapiens with 4 samples.

Results

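The genes examined are the replication-dependent histone genes as measured in MDA-MB-231, an established human line from a triple-negative breast tumour with mesenchymal features. They were taken by name from the table of read counts, as every row whose symbol is that of a clustered H1, H2A, H2B, H3 or H4 gene, which gave 39 of the 18276 genes listed: 2 H1, 11 H2A, 12 H2B, 8 H3 and 6 H4 genes. RNA recovered with an antibody against SF3B6 (SF3B6 IP, 2 libraries) was set against RNA of the input (Input, 2 libraries). By the labels all 4 came from total RNA of this line, irradiated with UV light to link RNA to protein, and digested with DNase (RQ1) and MNase, and no knockdown is named for them. SF3B6 is a small protein of SF3b, which holds the branch point of introns in the U2 particle of the spliceosome. The comparison thus asks how RNAs that typically carry no intron are represented in its precipitate. An IgG control is not analysed here, so recovery that does not depend on SF3B6 is included in every IP value.

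Replication-dependent histone genes supply the proteins that package newly made DNA. H2A, H2B, H3 and H4 form the nucleosome core, and H1 binds the linker between nucleosomes. Their typical messengers have no introns, and most end in a stem-loop bound by SLBP in place of a poly(A) tail. The U7 particle, rather than the splicing machinery, guides the cut that makes this end. The genes lie in clusters, often as H2A and H2B genes that are transcribed away from each other from a shared stretch of DNA, and many copies encode the same protein. Histone RNA is abundant in S phase. As in any bulk library, fewer cells in S phase and less histone RNA per cell cannot be told apart.

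SF3B6 IP 1 and 2 held 55492 and 30431 counts in genes, far fewer than the 317190 and 519836 of Input 1 and 2. The 10 markers listed for the line summed to 1619 and 2989 counts in Input 1 and 2, but were covered unevenly. VIM had 286 and 532 input counts and AXL 871 and 1537, while ANXA1 had 11 and 14 and SPARC 0 and 2. ERBB2, listed as low in this line, had 76 and 147. The endothelial markers listed (2 genes) had 0 IP and 3 input counts and the blood markers (3 genes) 4 IP and 1 input counts. The histone genes had 42 and 18 counts in the IP libraries and 331 and 633 in the inputs. Levels are given as CPM, counts per 1000000 of each library's effective size after TMM scaling. At that size a count of 0 allows up to 66.1 CPM in SF3B6 IP 1 and 131 CPM in SF3B6 IP 2 (3 counts per library), against 10.6 and 6.12 CPM in the inputs. The mean input level was above the first of these IP limits for 5 members and above the second for 1, so most members were not measurable singly in the precipitate. Intervals on ratios are exact 95% intervals for pooled counts. Since the libraries hold no molecular identifiers, these intervals and limits cover counting error only.

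Histone RNA as a whole was slightly less represented in the SF3B6 precipitate than in input. Summed over the 39 genes, SF3B6 IP 1 had 925 and SF3B6 IP 2 had 784 CPM, where Input 1 had 1165 and Input 2 had 1290 CPM. Both IP libraries lay below both inputs, and the sums were 855 ± 99.3 CPM in IP and 1227 ± 88.9 CPM in input (SD, n = 2 libraries each). The ratio of pooled counts was 0.705, with an interval from 0.534 to 0.916. At the input level the IP libraries would have held 85.1 histone counts, and they held 60. Over the 4 pairings of single libraries the ratio ran from 0.608 to 0.794. As plain shares of all counts in genes, histones made up 0.0757% and 0.0592% in the IP libraries and 0.104% and 0.122% in the inputs. No p-value is given for this sum, and 2 libraries against 2 could not reach the threshold in an exact permutation test.

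IP and input have no common absolute scale, and the log2 ratio moved with the scaling. The log2 ratio of mean levels was -0.52 with TMM scaling, where the median gene tested stood at -0.06. With upper quartile scaling the log2 ratio was -0.66 and the median gene was at -0.19. With library totals they were -0.75 and -0.27. With the library totals behind the authors' FPKM values they were -2.15 and -1.65. A change of scaling shifts all genes nearly alike, so the distance from the median gene is held close by construction and adds no support.

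**Figure D1:**
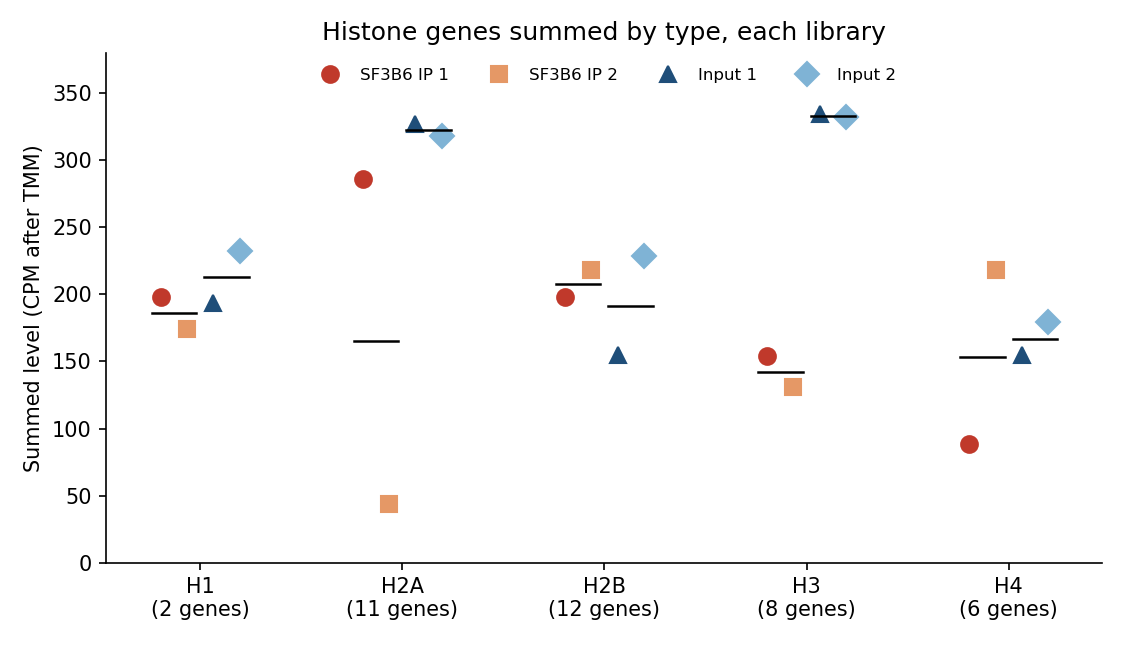
Summed level (CPM after TMM) of the members of each histone type, 1 point per library, with bars at the group means. H3 is at 154 and 131 CPM in the IP libraries and at 334 and 332 CPM in the inputs, while the H1, H2B and H4 sums of IP and input overlap.

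The pooled ratio of the 5 histone types ran from 0.439 to 1.02. H3, which with H4 forms the central tetramer of the nucleosome, was lowest in IP relative to input. The 8 H3 genes summed to 154 and 131 CPM in IP and to 334 and 332 CPM in input, a pooled ratio of 0.439 (interval 0.208 to 0.821) from 10 IP and 258 input counts. Neither IP library came near an input for H3, and the log2 ratio of means stayed between -1.35 and -1.11 when each library was left out in turn. H3C2 alone gave 82 of the 258 input counts. Without it the H3 ratio was 0.580 (0.261 to 1.13), so its interval then included 1.

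H2A, which pairs with H2B in the nucleosome, was also below both inputs in both IP libraries, but the IP libraries disagreed. The 11 H2A genes summed to 286 and 43.6 CPM in IP and to 327 and 318 CPM in input, from 13 and 1 IP counts and 93 and 156 input counts. SF3B6 IP 1 was close to the inputs and SF3B6 IP 2 was far below them. The pooled ratio was 0.637 (interval 0.343 to 1.09). The log2 ratio of means was -0.97, but -2.89 without SF3B6 IP 1 and -0.17 without SF3B6 IP 2.

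For H1, H2B and H4 the interval of the ratio included 1. H1 genes summed to 198 and 174 CPM in IP and to 194 and 232 CPM in input, a pooled ratio of 0.872 (interval 0.455 to 1.53). H2B genes summed to 198 and 218 CPM in IP and to 155 and 228 CPM in input, a pooled ratio of 1.02 (0.543 to 1.76). H4 genes summed to 88.1 and 218 CPM in IP and to 155 and 179 CPM in input, a pooled ratio of 0.773 (0.346 to 1.51). In each of these 3 types the IP and input values overlapped. The direction also turned with single libraries. The log2 ratio of H2B went from 0.12 to -0.13 without Input 1, and that of H4 from -0.13 to 0.38 without SF3B6 IP 1. With upper quartile scaling and with library totals H2B was at -0.01 and -0.12. The intervals of all 5 types overlap, and the differences between types were not tested.

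**Figure D2:**
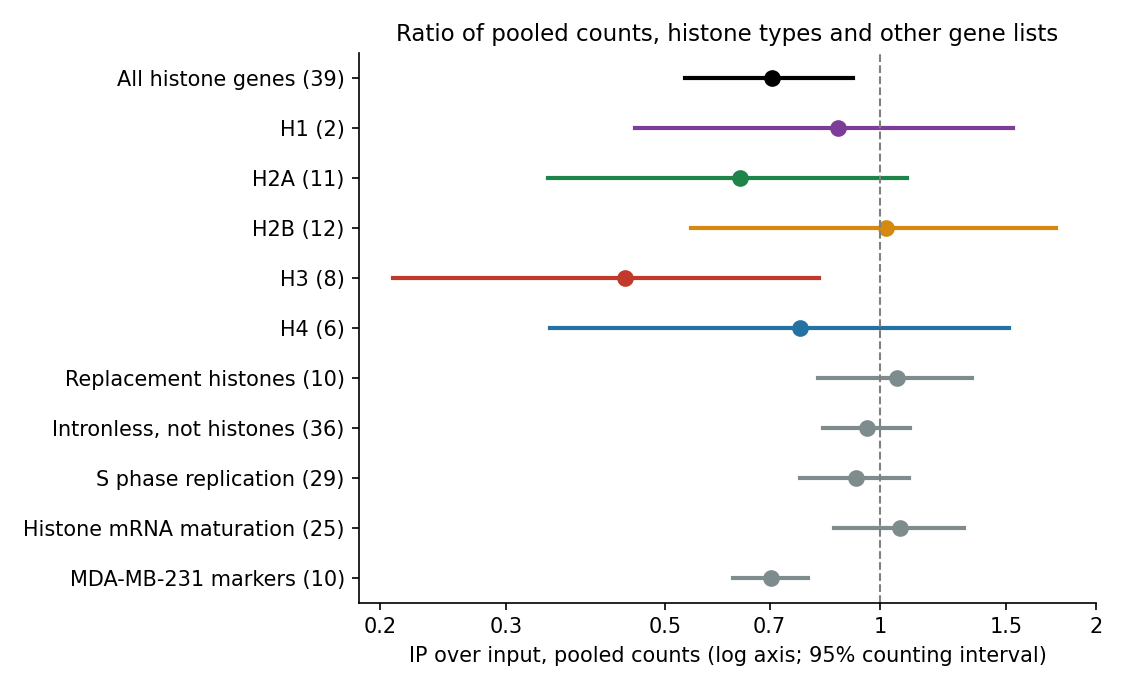
Ratio of pooled IP counts to pooled input counts (log axis) with exact 95% counting intervals for all histone genes, each type, and 5 other gene lists, with the number of genes in the table in brackets. The intervals of all histone genes (0.534 to 0.916), of H3 (0.208 to 0.821) and of the markers of the line (0.622 to 0.793) lie below 1, and those of the other types and lists shown include it.

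Tested singly, no histone gene passed the threshold. The default expression filter of edgeR kept 7 of the 39 members, H1-4, H1-2, H2AC11, H2AC6, H3C2, H3C3 and H4C2, and edgeR's quasi-likelihood test called 0 of these 7 at an adjusted p under 0.05, against 4.06% of all 3668 genes tested (2.7% higher and 1.36% lower). At an unadjusted p under 0.05 there was 1, H3C2. DESeq2 called 0, and gave an adjusted p for 1 of the 7. The median log2 fold change of the 7 was -0.35, beside -0.06 over all genes tested. The other 32 members had 28 IP and 471 input counts between them. Both IP libraries lay below both inputs for 3 of the 7, against 28.5% of all genes tested, and above both for 0, against 20.9%. These 3, H3C2, H2AC6 and H1-2, had 0 to 2 counts in each IP library and passed the filter through their input counts. Such a filter favours lower IP values, so the count of 3 and the median of the 7 add no support.

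**Figure D3:**
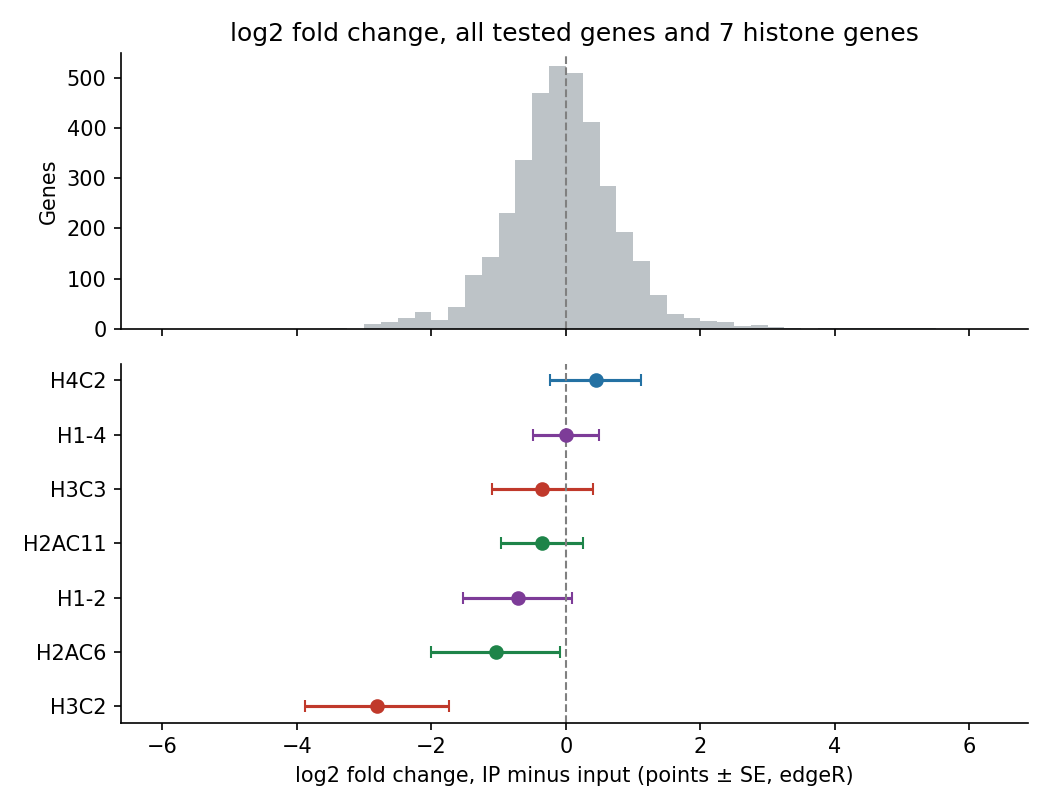
Log2 fold change, IP minus input, of all 3668 genes tested (upper panel, number of genes per bin) and of the 7 tested histone genes (lower panel, edgeR estimate ± SE). H3C2 is farthest from 0, at -2.81, and H1-4 sits at 0.01.

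H3C2, on chromosome 6 (26031589 to 26032099 in GRCh38.p14, RefSeq), had the lowest estimate of the tested members. It encodes the replication-dependent H3.1 protein. It had 0 and 1 counts in SF3B6 IP 1 and 2 and 36 and 46 in Input 1 and 2, or 0 and 43.6 CPM against 127 and 93.8 CPM. The ratio of pooled counts was 0.138, with an interval from 0.00346 to 0.792. Its log2 fold change was -2.81 ± 1.08 (SE), with an unadjusted p of 0.0133 and an edgeR adjusted p of 0.159. Without SF3B6 IP 1 the estimate was -1.49 (adjusted p = 0.649), and without SF3B6 IP 2 the adjusted p was 0.0549, with 0 counts left in IP. Over the 6 edgeR alternatives scaled to counts in genes the adjusted p ran from 0.0549 to 0.649, while it was 0.00136 with the FPKM totals, where 57.2% of all genes were lower. On the FPKM as given, H3C2 also had the highest mean level of all members in input (34.3 ± 1.51 FPKM, SD, n = 2). It stood at 33.2 and 35.4 FPKM, and H1-4 was above it in Input 2, at 37.9 FPKM. This rank depends on the gene models. H2AC11, whose model is 4.56 times the RefSeq span, would stand at 28.7 and 45.4 FPKM at RefSeq length, if all its reads fall inside the RefSeq gene.

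Another H3.1 gene, H3C3 (26045384 to 26045869), had 3 and 1 IP counts and 17 and 41 input counts. Its levels of 66.1 and 43.6 CPM in IP overlapped the 59.8 and 83.6 CPM of the inputs. The edgeR estimate was -0.35 ± 0.75 on the log2 scale (adjusted p = 0.894). H3C10 had 0 and 1 counts in IP where the inputs had 15 and 28, a ratio of 0.264 (interval 0.00652 to 1.55). H3C12 had 0 counts in each IP library where the inputs had 16 and 23 (interval of the ratio 0 to 1.12). H3C13, an H3.2 gene on chromosome 1, went the other way in SF3B6 IP 1, with 3 and 0 IP counts against 4 and 19 in input (ratio 1.48, interval 0.284 to 4.89). Of the 8 H3 genes, 6 had a pooled ratio under 1 and 2, H3C13 and H3C1, a ratio above 1. Of the 6, 3 had no IP count, and the share of all genes with a ratio under 1 was not counted. H3C2 alone had an interval that left out 1, without adjustment for the number of members looked at.

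H1-4 had the most counts of any member and overlapping levels in IP and input. This linker histone gene lies at 26156329 to 26157115 on chromosome 6. It had 7 and 3 IP counts and 37 and 76 input counts, or 154 and 131 CPM in IP and 130 and 155 CPM in input. The group means were 142 ± 16.6 and 143 ± 17.5 CPM (SD, n = 2 each), and edgeR gave a difference of 0.01 ± 0.49 on the log2 scale (adjusted p = 0.996). The interval of its ratio, 0.468 to 1.91, is wide on both sides. The other linker histone gene, H1-2 (26055740 to 26056470), had 2 and 1 IP counts and 18 and 38 in input. At 44.0 and 43.6 CPM it lay below both inputs, at 63.3 and 77.5 CPM, with a ratio of 0.607 (interval 0.122 to 1.87) and a log2 fold change of -0.71 ± 0.81 (adjusted p = 0.758).

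Among the core histone genes outside H3, the tested ones were H2AC11, H2AC6 and H4C2. H2AC11 (27133043 to 27133535) had 5 and 1 IP counts and 30 and 57 input counts, or 110 and 43.6 CPM against 106 and 116 CPM. SF3B6 IP 1 lay between the inputs and SF3B6 IP 2 below them, and edgeR gave -0.35 ± 0.61 on the log2 scale (adjusted p = 0.867). H2AC6 (26124172 to 26124690) had 2 and 0 IP counts against 18 and 29, a ratio of 0.482 (interval 0.0567 to 1.84), with both IP levels below both inputs and an edgeR estimate of -1.04 ± 0.96 (adjusted p = 0.654). H4C2 (26026896 to 26027283) had the highest estimate of the tested members, at 66.1 and 131 CPM in IP against 49.3 and 73.4 CPM in input. The edgeR estimate was 0.44 ± 0.68 (adjusted p = 0.847), from 3 and 3 IP counts, with overlapping groups, and turned to -0.06 without SF3B6 IP 2.

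**Figure D4:**
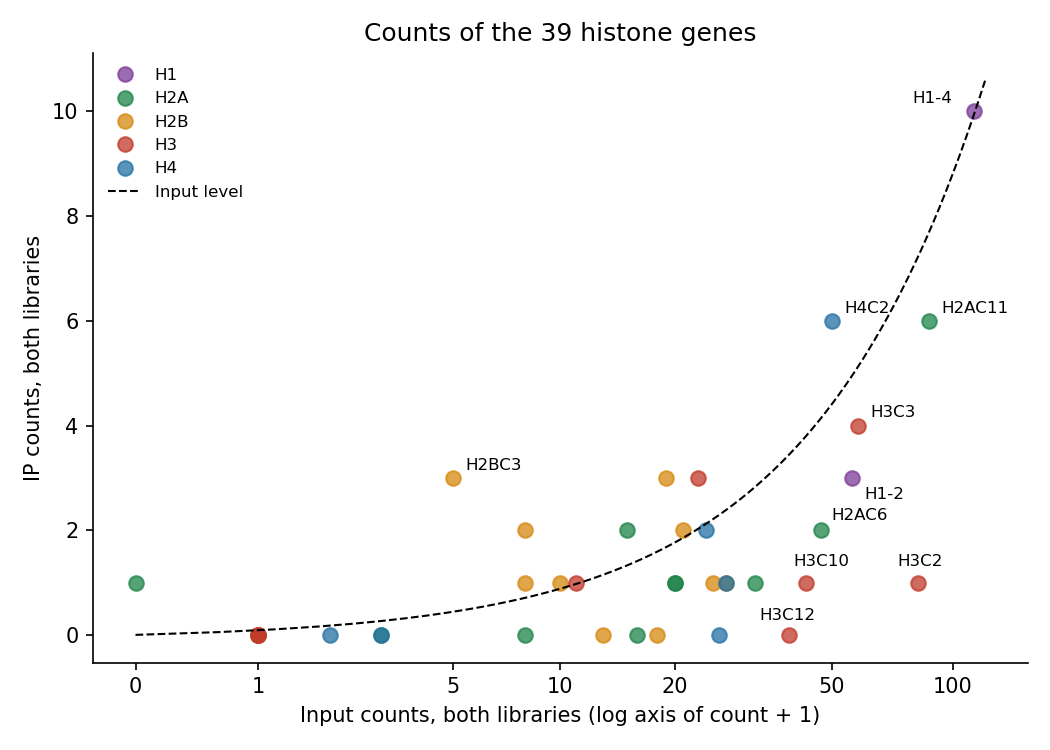
IP counts against input counts of each of the 39 histone genes, both libraries of a group summed (x on a log axis of count + 1), coloured by type. The dashed line is the IP count a gene would have at its input level. H1-4 lies on it and H3C2 lies far under it. H3C10, H3C12 and H2AC6 lie under it by a few counts, with intervals of the ratio that include 1. Most other genes have 0 to 3 IP counts.

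The remaining members were too thinly covered for a gene by gene reading. Of all 39, 14 had 0 IP counts, 12 had 1, 10 had 2 to 4, and 3 (H1-4, H2AC11 and H4C2) had 5 or more. In single libraries 20 members had a count in SF3B6 IP 1, 13 in SF3B6 IP 2 and 8 in both, against 34 in Input 1, 35 in Input 2 and 31 in both. The pooled ratio was below 1 for 27 members and above 1 for 11, and the last, H2AC19, had no input count and 1 IP count. Of the 27, 14 had 0 IP counts, which puts the ratio at 0 whatever the input count. The same shares over all genes were not counted, so these counts of members add no support. The interval lay below 1 for 1 member, H3C2, and above 1 for 1, H2BC3. Among 39 intervals of 95%, some can leave out 1 without any difference, and the share over all genes was not counted. H2BC3 had 3 counts in SF3B6 IP 1, 0 in SF3B6 IP 2, and 0 and 5 in the inputs (ratio 6.80, interval 1.06 to 35.0), so a single library carried its IP counts.

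The most counted of the other H2A genes were H2AC20 and H2AC12. H2AC20, on chromosome 1, had 1 and 0 counts in IP where the inputs had 11 and 21 (ratio 0.354, interval 0.00870 to 2.12). H2AC12 had 1 and 0 against 10 and 10 (0.567, 0.0137 to 3.54), the same counts as H2AC21. In IP, 4 of the 11 H2A genes had no count, among them H2AC13, with 5 and 11 counts in input. SF3B6 IP 2 held its single H2A count at H2AC11.

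None of the 12 H2B genes passed the expression filter, and each had at most 28 counts over the 4 libraries. H2BC4 had 1 and 0 counts in IP where the inputs had 6 and 21 (ratio 0.420, interval 0.0103 to 2.55). H2BC12 had 1 and 0 against 7 and 18 (0.453, 0.0110 to 2.77). H2BC15 had 1 and 1 against 6 and 15 (1.08, 0.123 to 4.42), and H2BC5 had 2 and 1 against 6 and 13 (1.79, 0.339 to 6.08). These 4 carried most H2B counts, with ratios on either side of 1 and intervals that all include it.

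Of the H4 genes, copies that encode the same protein, H4C2 stood beside H4C1, H4C8 and H4C3. H4C1 had 0 and 1 counts in IP where the inputs had 6 and 21 (ratio 0.420, interval 0.0103 to 2.55). H4C8 had 1 and 1 against 11 and 13 (0.944, 0.108 to 3.80). H4C3 had 0 in both IP libraries against 11 and 15. Reads from copies with near-identical coding sequence may be shared between genes or dropped, since no source used here says how reads that map to several places were treated. The pairs H3C14 and H3C15, and H2AC18 and H2AC19, which are near-identical neighbours on chromosome 1, had 1 to 3 counts per gene over all 4 libraries. Of 69 protein-coding RefSeq genes with a name of this kind, 30 are not analysed here.

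The extent of the gene models differed between members. Counts, FPKM and the library totals behind the FPKM values together imply the length over which reads of a gene were counted. For 22 members this length was within 1.1 times the RefSeq span. Among these are the 6 genes used to recover the totals, H1-4, H1-2, H2AC20, H3C2, H3C3 and H4C1, which match by construction. For 13 it was longer, by 3.43 times for H4C2, 4.56 times for H2AC11 and 9.97 times for H2BC15, so that counts of these genes can include reads from outside the RefSeq histone gene. For 4 H2B genes, H2BC4, H2BC12, H2BC5 and H2BC18, it was shorter than the span. Their counted lengths were 834, 495, 871 and 3184 bases, within RefSeq spans of 10757, 8566, 13229 and 29682 bases. Whether RefSeq transcripts of these 4 genes hold introns was not examined, so the description as intronless may not cover every transcript of them. Members of RefSeq length summed to 550 and 305 CPM in IP and 668 and 732 CPM in input (ratio 0.661, interval 0.447 to 0.944), and members with longer models to 286 and 392.2 CPM and 422 and 440 CPM (0.742, 0.459 to 1.14). In both of these classes each IP library lay below both inputs. The 4 genes with shorter models, at 88.1 and 87.1 CPM in IP, lay between the inputs' 73.9 and 118 CPM (0.861, 0.307 to 1.96). By location, the 29 genes on chromosome 6 had a ratio of 0.698 (0.518 to 0.921) and the 10 on chromosome 1 of 0.770 (0.302 to 1.64).

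H2A and H2B genes that are transcribed away from each other share 1 stretch of DNA between their start sites, so their RNA levels can be set side by side. Among the members 6 such pairs were found with both genes measured and at most 247 bases between their RefSeq starts. The stretches of the 3 pairs with the most counts are shown because both genes of a pair begin at their edges. They are read 5′ to 3′ on the plus strand of GRCh38.p14 from the RefSeq promoter table and hold no transcribed base of either gene. Capitals mark 3 motifs of histone promoters on either strand. The TATA motif was searched as TATAAA, which can overlap its own reverse complement. The second motif was CCAAT. The octamer was searched as ATTTGCAT.
H2BC11 (minus strand, left) and H2AC11 (plus strand, right), chr6:27132796-27133042: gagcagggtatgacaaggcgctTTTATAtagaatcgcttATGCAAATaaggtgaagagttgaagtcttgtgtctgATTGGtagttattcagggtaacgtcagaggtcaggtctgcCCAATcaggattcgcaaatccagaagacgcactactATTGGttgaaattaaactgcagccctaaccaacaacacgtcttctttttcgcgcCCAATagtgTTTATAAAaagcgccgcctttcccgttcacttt
H2BC4 (minus strand, left) and H2AC6 (plus strand, right), chr6:26123927-26124171: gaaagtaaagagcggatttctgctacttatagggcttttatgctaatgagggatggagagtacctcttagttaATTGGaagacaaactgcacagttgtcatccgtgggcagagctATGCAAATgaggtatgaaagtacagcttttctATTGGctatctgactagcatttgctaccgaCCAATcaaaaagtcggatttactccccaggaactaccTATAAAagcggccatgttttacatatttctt
H2BC21 (minus strand, left) and H2AC20 (plus strand, right), chr1:149886683-149886917: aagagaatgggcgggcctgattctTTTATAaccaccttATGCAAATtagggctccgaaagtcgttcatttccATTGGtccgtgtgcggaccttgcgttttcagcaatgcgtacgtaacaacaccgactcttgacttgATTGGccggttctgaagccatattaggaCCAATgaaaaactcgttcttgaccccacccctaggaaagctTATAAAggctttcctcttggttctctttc

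All 3 stretches hold 1 octamer and 3 or 4 CCAAT boxes. Over the 35 members with an entry in the promoter table (windows of 300 bases, from 250 before to 50 after the start), 91.4% held CCAAT, 77.1% TATAAA and 42.9% the octamer. Among all 27305 promoters of that table the shares were 35.7%, 12% and 1.80%. The octamer was found in 6 of 10 H2A and 9 of 12 H2B windows and in 0 of 2 H1, 0 of 7 H3 and 0 of 4 H4 windows. Windows of paired genes overlap, so these are not independent. A match of letters is a description of the sequence and was not related to the IP ratio.

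Levels of the paired genes, per gene length in input, differed within several pairs. H2AC11 stood at 6.29 and 9.95 FPKM in Input 1 and 2 and its partner H2BC11 at 1.80 and 2.25 FPKM. H2AC20 stood at 10.5 and 16.7 FPKM and H2BC21 at 0.640 and 1.79 FPKM, the widest gap in FPKM of the 3 pairs shown. The model of H2BC21 has 2194 bases and that of H2AC20 494. By counts this gap was narrower, at 11 and 21 against 3 and 10. It was widest for H2AC11 and H2BC11, at 30 and 57 against 4 and 6. H2AC6 and H2BC4 were alike, at 5.09 and 6.83 FPKM against 3.39 and 9.89 FPKM, with the order turned between the inputs. H2AC15, at 1.90 and 4.75 FPKM, was above H2BC15, at 0.520 and 1.09 FPKM, but this order rests on the long model of H2BC15. By counts H2BC15 was higher, at 6 and 15 against 2 and 6. With its counts set over the RefSeq length it would stand at 5.18 and 10.9 FPKM. H2AC13, at 4.69 and 8.59 FPKM, was above H2BC13, at 0.970 and 0 FPKM, while H2AC14 and H2BC14 had 1 count each over all libraries. On the FPKM as given the H2A gene was higher in both inputs in 4 of the 6 pairs. Scaled to RefSeq length, an alternative chosen after seeing the data that could be computed for 5 pairs, it was higher in 3, those of H2AC11, H2AC20 and H2AC13. Both the size of a gap and its direction can thus depend on the gene models, as these scaled values assume that all reads fall inside the RefSeq gene. In IP the 6 pairs together had too few counts, at most 7 per pair, for such a comparison.

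**Figure D5:**
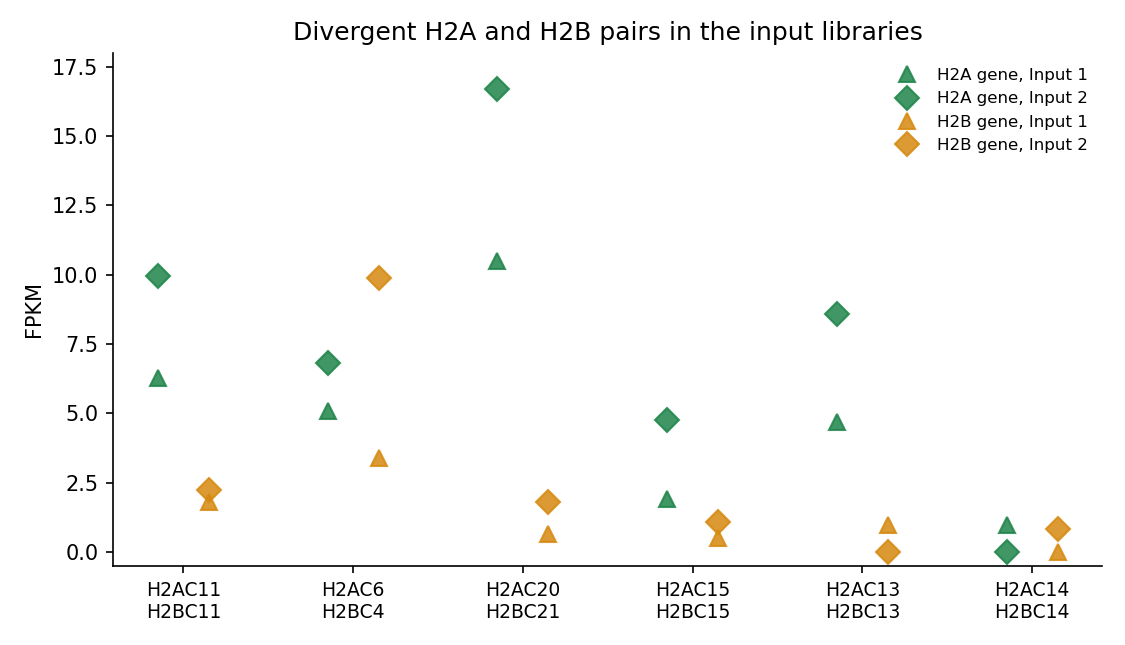
FPKM of both genes of each divergent H2A and H2B pair in Input 1 and Input 2, ordered by the counts of the pair. The H2A gene lies above its H2B partner in both inputs in the pairs of H2AC11, H2AC20, H2AC15 and H2AC13 (the H2AC15 pair turns at RefSeq length), and the H2AC6 and H2BC4 values overlap.

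Across all members the input level per gene length, on the FPKM as given, ranged widely. After H3C2, the mean input levels were highest for H1-4 (30.0 ± 11.1 FPKM, SD, n = 2), H3C3 (24.8 ± 11.8), H1-2 (16.0 ± 6.22) and H4C1 (13.8 ± 9.52). H4C3 (13.7 ± 1.23) and H2AC20 (13.6 ± 4.38) followed. Neighbours in this order overlap within their spread. By type the median member stood at 23.0 FPKM for H1, 8.48 for H3, 6.04 for H2A, 5.08 for H4 and 1.62 for H2B. The order of members and of types depends on the gene models, since a longer model lowers the FPKM. Both H1 genes were taken to have a model of RefSeq length, while that of H2BC15 was 9.97 times and that of H4C2 3.43 times the RefSeq span. The 5 members with the most counts, H1-4, H2AC11, H3C2, H3C3 and H1-2, held 41.0% of all histone counts over the 4 libraries.

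Other gene lists give the setting in which the histone values stand, and 1 of them had a ratio as low. The 10 genes listed as markers of MDA-MB-231 had a pooled ratio of 0.703 (interval 0.622 to 0.793), beside 0.705 for the histone genes. They summed to 4162 and 4227 CPM in IP and 5696 and 6093 CPM in input, so both IP libraries lay below both inputs here too. Of 8 tested, edgeR called 1, FN1, which encodes the matrix protein fibronectin, lower in IP (log2 fold change -1.63 ± 0.35, adjusted p = 0.00305). AXL, a receptor kinase, and VIM, an intermediate filament gene, were at -0.57 ± 0.20 and -0.29 ± 0.22 (adjusted p = 0.118 and 0.563). Of 7 genes listed as low in this line, the 5 found had 17 IP and 252 input counts, a ratio of 0.765 (0.438 to 1.25).

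Replacement histones are made outside S phase and come mostly from genes with introns and poly(A) tails. The 10 genes of this list that were found summed to 1167 and 871 CPM in IP and 1020 and 1009 CPM in input. Their pooled ratio was 1.05 (interval 0.818 to 1.34), and edgeR called 0 of the 7 tested, 0 of them at an unadjusted p under 0.05, with a median log2 fold change of 0.25. H2AX, the variant phosphorylated at DNA breaks, had the most counts (log2 fold change 0.46 ± 0.34, adjusted p = 0.549), followed by MACROH2A1 (-0.10 ± 0.38, 0.955). The genes of the replacement H3.3 protein, H3-3A and H3-3B, named here after their values were seen, had a pooled ratio of 1.40 (0.675 to 2.63), where the replication-dependent H3 genes had 0.439. SF3B6 IP 1 held all but 1 of their 11 IP counts, and the difference between these H3 ratios was not tested.

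Genes without introns that are not histones had a pooled ratio close to 1. Of 46 such genes listed, the 36 found summed to 3193 and 3268 CPM in IP and 3314 and 3384 CPM in input. The ratio was 0.958 (interval 0.831 to 1.1), and the sums were close together although the IP values are below both inputs. By edgeR, 0 of the 18 tested were called and 5 had an unadjusted p under 0.05, with a median log2 fold change of -0.22. CLDN4, a tight junction gene, was at -0.84 ± 0.33 (adjusted p = 0.182) and IER5, an immediate early gene, at 0.33 ± 0.29 (0.635). The difference between these genes and the histones was not tested.

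Genes that act with histone synthesis also showed no call. DNA replication genes of S phase had a ratio of 0.924 (0.773 to 1.1) over 29 genes, with 0 of 15 called and 0 at an unadjusted p under 0.05 by edgeR, and a median log2 fold change of -0.29. POLE and POLD1, catalytic subunits of the replicative polymerases, were at -0.68 ± 0.38 and 0.06 ± 0.36 (adjusted p = 0.381 and 0.969). Genes whose products mature or degrade histone messengers had a ratio of 1.07 (0.861 to 1.31) over 25 genes, with 0 of 6 called, 1 at an unadjusted p under 0.05, and a median of -0.43. UPF1, a helicase of messenger decay that also acts on histone messengers, was at 0.07 ± 0.29 (adjusted p = 0.956), and SYMPK, the scaffold of the cleavage complex, at -0.72 ± 0.37 (0.341). SLBP, named for its role, had 2 and 1 counts in IP where the inputs had 25 and 29, at -0.66 ± 0.83 (0.795).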

How the data were processed

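RNA of MDA-MB-231 cells was counted in 2 SF3B6 IP and 2 Input libraries, called biological replicates by the series text. The field for the line reads differently in each sample, so the line was taken from the titles. The authors deposited read counts per gene, not normalized, and, in a second deposited table, FPKM per gene. The submitters' processing notes name HISAT2, HOMER and hg38, without role or version. No source used here gives the counter or strand setting. The total behind the FPKM was recovered from counts, FPKM and RefSeq lengths, taking 6 compact histone genes to have their RefSeq length. Counts in genes were 7.32%, 6.07%, 15.0% and 20.4% of it for SF3B6 IP 1 and 2 and Input 1 and 2.

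All genes were fitted with edgeR 4.0.16 (R 4.3.3), using its quasi-likelihood test, the default expression filter, TMM factors (0.968, 0.860, 1.06 and 1.13), group as the 1 term and Benjamini-Hochberg adjustment at 0.05 over 3668 genes. CPM use the same effective sizes. DESeq2 1.42.0 and limma 3.58.1 on log2(FPKM + 1) served as alternatives, as did other scalings and filters, a replicate block and leaving out each library. The fit was tested on simulated data. All 39 symbols matched RefSeq (GRCh38.p14), which gives the coordinates.

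Members and gene lists were chosen with earlier results of these data known. Genes named are members past the threshold, the 4 most counted members and the extreme fold changes of each type, and in other lists the called and the 2 most counted genes. Exceptions are marked or illustrate a count.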

Additional observations from a re-analysis of the deposited data

How the results depend on the processing

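No edgeR setting scaled to counts in genes called a histone gene. The count of called members was 0 with TMM, upper quartile scaling, library totals, no filter (39 members tested), and without SF3B6 IP 1 or SF3B6 IP 2 (20 tested each; range 0 to 0). It was 6 of 7, all lower, with the FPKM totals and with limma on log2(FPKM + 1), where 57.2% and 69.5% of all genes were lower too. A minimum of 50 counts in 2 libraries, leaving out Input 1 and leaving out Input 2 left no member to test. Over all genes TMM gave 99 higher and 50 lower, library totals 60 and 90, upper quartile scaling 67 and 69, the FPKM totals 17 and 2098, no filter 50 and 163, and DESeq2 35 and 3. The replicate numbers pair samples by label. The deviations of SF3B6 IP 1 and Input 1 had a correlation of -0.0017 across 3668 genes. With so few IP counts per gene, this value cannot show whether libraries of the same number belong together. With a replicate block 0 members were called, and 68 genes were higher and 22 lower.

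The log2 ratio of the histone sum, -0.52, was -0.75 with library totals, -2.15 with the FPKM totals and -2.32 as a sum of FPKM. It ran from -0.65 to -0.41 without single libraries, and was -0.61 without H1-4. Chosen after seeing the data, it was -0.71 over members of RefSeq length and -0.42 without H3C2. The H2B sum turned to -1.57 with the FPKM totals and -1.80 as a sum of FPKM. H1-4, at 0.01, was at -0.21 with library totals, -0.13 with upper quartile scaling, -1.59 with the FPKM totals, -1.52 with limma, -0.47 with no filter, and -0.37 and -0.014 without SF3B6 IP 1 and 2. H4C2, at 0.44, was at -1.12 with the FPKM totals, -0.83 with limma, -0.028 with no filter, and -0.058 and 0.80 without SF3B6 IP 2 and 1. The median over all genes tested, at -0.06, moved too. It was -0.27 with library totals, -0.19 with upper quartile scaling and -1.65 with the FPKM totals. It was -1.05 with limma, -1.23 with no filter, and -0.34 and -0.16 without SF3B6 IP 1 and 2. The cause of the turns in H2B, H1-4 and H4C2 was not tested. H2AC15 over H2BC15 in input, at 2.05 (log2 of mean FPKM), was at -1.27 at RefSeq length, by construction of the gene models. The histone values rest on 60 IP counts over 39 genes.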
